A study of Mus musculus with 15 samples.

Results

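The genes described are the ATPases and partner subunits of the ISWI and SWI/SNF chromatin remodelling complexes in mouse testis: Smarca5 and Smarca1 with Baz1a, Baz1b and Baz2a on the ISWI side, and Smarca4, Smarca2, Arid1a and Smarce1 on the SWI/SNF side. They were taken by symbol from the gene list of the single-cell count tables, and all 9 symbols were found among 32285 listed genes. Each of the 15 libraries held the cells of 1 testis from 1 DBA/2J male. Treatment males (T) received 50 mg/kg JQ1 daily by intraperitoneal injection for 3 weeks and were taken at once, at 10 weeks of age, and vehicle males (VC-T) were handled in the same way. Recovery males (R) were taken 6 weeks after the last JQ1 dose, at 16 weeks, alongside vehicle males of that age (VC-R), and untreated males (UC) were taken at 15 weeks. There were 3 libraries per group. JQ1 is a small molecule that occupies the acetyl-lysine pocket of BET bromodomain proteins, including the testis protein BRDT, and the injections reach the whole animal. The UC males were older than the T males and had no injections, so in T against UC age, injections and drug cannot be told apart. R and UC males also differed in injections, and in age by 16 against 15 weeks. In T against VC-T the ages were the same and both groups were injected.

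Chromatin remodellers use ATP to slide, space or evict nucleosomes. Smarca5 (SNF2H) and Smarca1 (SNF2L) are alternative ISWI motors that space nucleosomes evenly, and the BAZ proteins are the large subunits that decide which complex the motor works in: BAZ1A in ACF and CHRAC, BAZ1B in WICH, BAZ2A in the nucleolar complex NoRC. Smarca4 (BRG1) and Smarca2 (BRM) are the alternative motors of SWI/SNF, which opens chromatin; ARID1A is the DNA-binding subunit of its canonical form and SMARCE1 a core subunit with an HMG domain. Male germ cells pass from dividing spermatogonia through meiosis to haploid spermatids, which exchange most histones for transition proteins and then protamines, and remodellers are known to act at meiotic chromosomes and before this exchange.

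A total of 72362 cells passed the filters, 2430 to 12744 per library, from 9673587 to 98724982 unique molecular identifiers (UMIs) per library. Cells were grouped into 31 clusters and named from marker genes as spermatogonia-like, spermatocyte-like (with leptotene and zygotene, pachytene, and diplotene and dividing stages), spermatid-like and late spermatid-like, and as Sertoli-like, Leydig-like and macrophage-like. The libraries shared at most 0.548% of barcodes of the smaller library of a pair. A level is given as the gene's UMIs per 1000000 UMIs of all cells of that class in a library (CPM), so it is a share of the class's RNA and not an amount per cell, and levels of different genes are not compared. The T libraries held 1 to 4 late spermatid-like cells each, too few to test. VC-T 1 held none, and 0.114% of its spermatid-like cells lay in cluster 20, against 11.2% to 26.1% in VC-T 2 and VC-T 3. In cluster 20 it thus stood with the T libraries (0.693% ± 0.491), and whether its label is right cannot be told from the sources used here. The study left VC-T 1 out of its tests, and it is left out here unless named. This choice decides the T against VC-T calls in spermatid-like and spermatogonia-like cells as classes. In R, clusters 9, 18 and 19, whose cells have few UMIs (the low-UMI clusters), made up 75.4% ± 7.28 (SD, n = 3) of spermatid-like cells, against 13.6% ± 5.29 in UC and 6.56% ± 1.28 in T.

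RefSeq promoters in GRCm38.p6 were found for 7 of the 9 genes. The sequences upstream of the annotated gene start are shown for the ISWI and SWI/SNF motors that fell together from meiosis to spermatids, Smarca5 at chr8:80739498-80739709 on the minus strand and Smarca4 at chr9:21615919-21616168 on the plus strand. Each is written in the direction of transcription, and capitals mark the GC box GGGCGG and the cyclic AMP element core TGACG on either strand.
Smarca5: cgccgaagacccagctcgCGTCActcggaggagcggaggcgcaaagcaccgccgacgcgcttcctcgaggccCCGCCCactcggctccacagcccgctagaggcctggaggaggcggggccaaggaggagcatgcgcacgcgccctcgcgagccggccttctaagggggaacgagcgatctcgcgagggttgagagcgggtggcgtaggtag
Smarca4: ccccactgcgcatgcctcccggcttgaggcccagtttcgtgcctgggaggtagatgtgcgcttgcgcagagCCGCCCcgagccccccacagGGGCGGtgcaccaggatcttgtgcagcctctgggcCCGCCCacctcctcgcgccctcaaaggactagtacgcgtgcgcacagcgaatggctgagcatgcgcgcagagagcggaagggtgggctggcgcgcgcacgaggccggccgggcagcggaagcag
The Smarca5 stretch of 212 bases held 28 CpG dinucleotides, 1 GC box and 1 TGACG core. The Smarca4 stretch of 250 bases held 25 CpG dinucleotides and 3 GC boxes. In the full 300-base windows the GC box was present in all 7 genes and in 35.7% of 32851 promoters, TGACG in Smarca5 and Smarca1 and in 20.8% of promoters, and neither the TATA box TATAAA (13.6% of promoters) nor the full element TGACGTCA (1.79%) was found in any of the 7. CpG counts of the 7 genes ranged from 9 in Smarca1 to 36 in 1 of the 2 Arid1a promoters, against a median of 7 over all promoters. Both motors have promoters rich in CpG. A match gives the letters only and was not tested for binding.

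The level of each gene along spermatogenesis was read in the 8 control libraries (UC, VC-R, VC-T 2 and VC-T 3). Stages were set from the same cells, so their order is a description. Smarca5 (ENSMUSG00000031715, mm10 chromosome 8, 80698507 to 80739497, minus strand) was high before and at the start of meiosis, with 800 ± 57.9 CPM in spermatogonia-like and 911 ± 108 in leptotene and zygotene-like cells (SD, n = 8 each). These ranges overlapped. It then stepped down to 238 ± 24.0 CPM in pachytene-like, 142 ± 10.6 in diplotene and dividing-like, 54.6 ± 12.7 in spermatid-like and 8.07 ± 1.60 in late spermatid-like cells. None of these germ cell ranges overlapped from the leptotene stage onward. A short unclassified transcript lies inside Smarca5 on the same strand, and their reads cannot be told apart.

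Smarca1 (X chromosome, 47809368 to 47892974, minus strand), the paralogous ISWI motor, was at most 2.01 ± 3.79 CPM in any germ cell stage. In Sertoli-like cells of cluster 27, whose leading genes include Mageb18 and Clu, it was 93.8 ± 10.3 CPM over 108 UMIs in 6 libraries. The other Sertoli-like cluster, cluster 7, had more control cells (530 against 238). Its Smarca1 level was 7.83 ± 8.86 CPM, from 13 UMIs, with 4 of 8 libraries at 0. Leydig-like cells had 55.9 ± 44.4 CPM from 17 UMIs in 5 libraries, and the range overlapped that of cluster 27. Smarca5 was 301 ± 49.3 CPM in cluster 27, 109 ± 61.3 in cluster 7 and 180 ± 64.5 in macrophage-like cells (12 UMIs in 3 libraries). The ranges of cluster 27 and the macrophage-like cells overlapped. The part of free RNA from germ cells in these levels was not tested.

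The BAZ partners peaked at different stages. Baz1b (chromosome 5, 135187264 to 135246129) was 245 ± 47.2 CPM in spermatogonia-like and 140 ± 41.5 in leptotene and zygotene-like cells, and 10.1 ± 2.50 in pachytene-like cells, where the highest library had 13.3. The ranges before and after entry into pachytene did not overlap. Baz2a (chromosome 10, 128091577 to 128129303) was highest in leptotene and zygotene-like cells at 255 ± 34.2 CPM, with every library above the highest pachytene-like library, and was 102 ± 34.0 in spermatogonia-like cells. Baz1a (chromosome 12, 54892989 to 55014348) was highest in pachytene-like cells at 495 ± 56.6 CPM, and its lowest library there (405) exceeded the highest library of any other germ cell stage (202 in leptotene and zygotene-like cells).

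Baz1a also had a low and a second rise within the haploid cells that the class means do not show. In the 8 control libraries it fell to 22.1 ± 9.09 CPM in cluster 5, the earliest spermatid-like cluster in pseudotime, and was 23.9 ± 4.70 in cluster 15 and 38.0 ± 3.30 in cluster 2. It then reached 160 ± 21.5 CPM in cluster 20 and 188 ± 28.6 in cluster 10, the first large late spermatid-like cluster, before 52.1 ± 5.30 in cluster 0 and 17.0 ± 8.66 in cluster 6. The lowest library of cluster 20 had 130 CPM and the highest of cluster 2 had 43.5. The transition protein genes Tnp2 and Tnp1 are among the leading genes of cluster 0. Smarca5 went the other way, from 44.0 ± 11.1 CPM in cluster 2 to 18.5 ± 3.77 in cluster 20 and 6.22 ± 1.78 in cluster 10, with no overlap between these clusters.

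Among SWI/SNF genes the motors differed in order. Smarca4 (chromosome 9, 21616169 to 21704230) was 228 ± 58.3 CPM in leptotene and zygotene-like, 179 ± 44.8 in spermatogonia-like and 150 ± 19.3 in pachytene-like cells, with overlapping ranges, then 83.7 ± 7.58 in diplotene and dividing-like and 9.02 ± 2.30 in spermatid-like cells. Smarca2 (chromosome 19, 26605050 to 26778322) was low at the start, with 37.4 ± 11.0 CPM in spermatogonia-like and 21.0 ± 12.8 in leptotene and zygotene-like cells. It was 181 ± 36.7 CPM in pachytene-like and 171 ± 25.8 in diplotene and dividing-like cells, whose ranges overlapped, and 56.0 ± 10.9 in spermatid-like cells. The lowest pachytene-like library (130 CPM) was above the highest spermatogonia-like library (52.9 CPM). Cluster 27 of Sertoli-like cells had the highest Smarca2 level, 278 ± 28.7 CPM, and cluster 7 of Sertoli-like cells had 58.1 ± 32.2.

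Arid1a (chromosome 4, 133679008 to 133756769) was 94.8 ± 22.3 CPM in leptotene and zygotene-like cells, 57.6 ± 24.6 in spermatogonia-like cells and 28.6 ± 5.30 in pachytene-like cells. Spermatid-like cells, at 25.5 ± 4.93 CPM, were above diplotene and dividing-like cells, at 13.3 ± 4.77, with 19.7 CPM in the lowest library of the former and 19.6 in the highest of the latter. Smarce1 (chromosome 11, 99209047 to 99231017) declined from 166 ± 19.4 CPM in spermatogonia-like cells to 79.3 ± 6.31 in pachytene-like, 29.7 ± 2.32 in spermatid-like and 9.55 ± 2.01 in late spermatid-like cells. Of the 9 genes, all but Smarca1 had their lowest mean germ cell level in late spermatid-like cells, although the range there overlapped that of spermatid-like and of leptotene and zygotene-like cells for Baz1a, of leptotene and zygotene-like cells for Smarca2, and of diplotene and dividing-like cells for Arid1a.

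**Figure D1:**
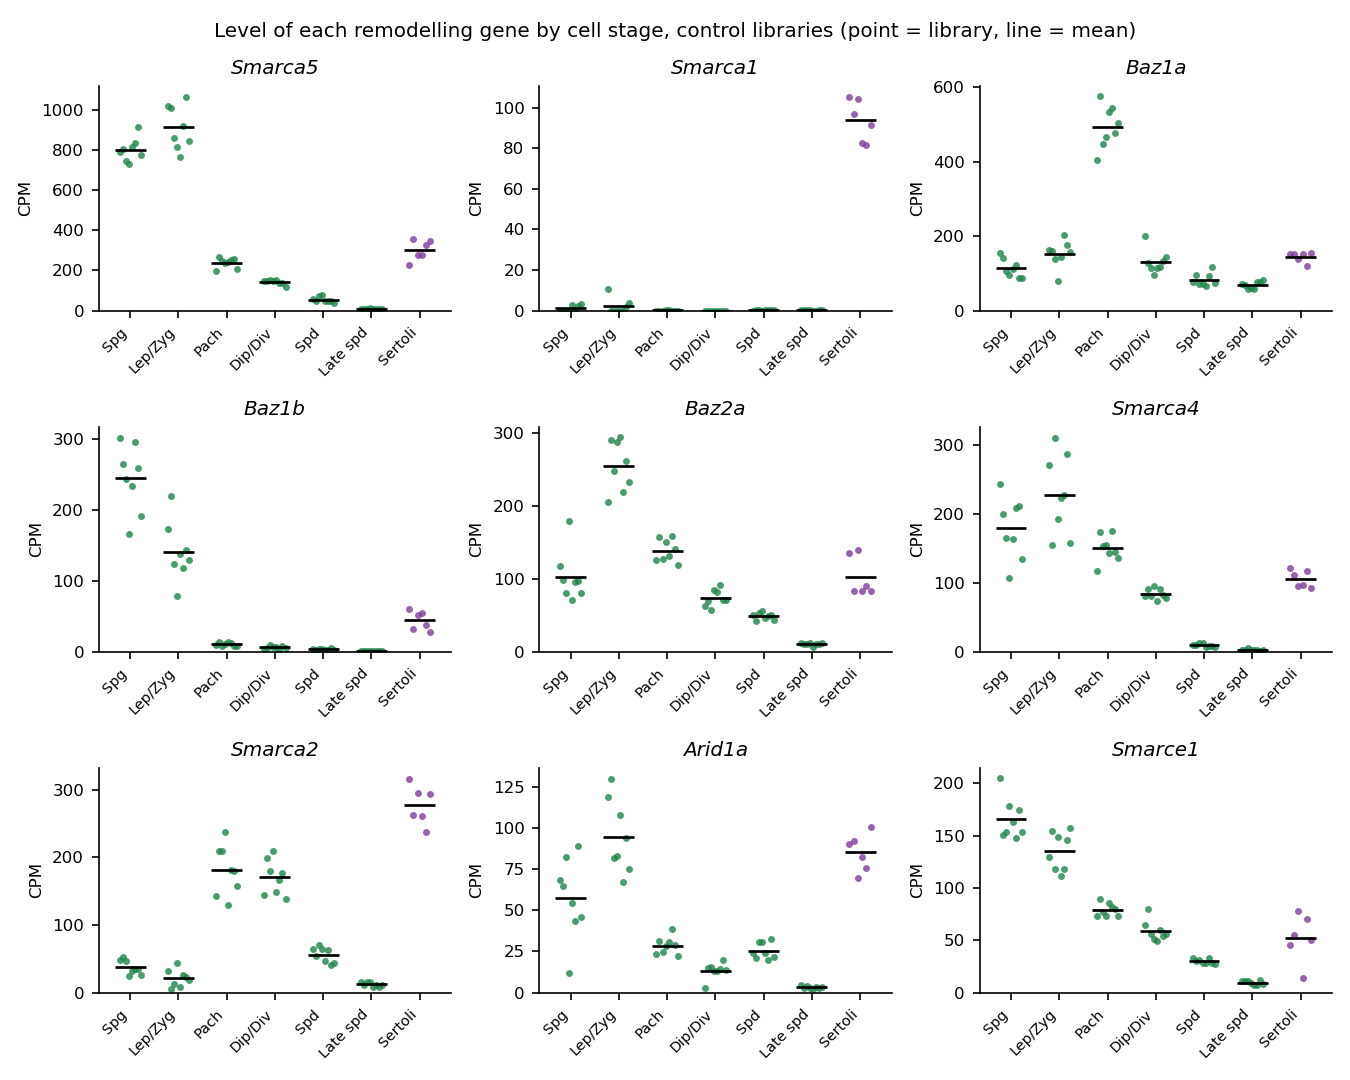
CPM of each gene (y axis, linear) in 6 germ cell stages and in Sertoli-like cluster 27 (x axis), with 1 point per control library with at least 10 cells and a line at the mean. Baz1a stands at 405 to 578 CPM in pachytene-like cells, Smarca5 and Baz1b have their highest germ cell levels before pachytene, and Smarca1 stands at 81.9 to 106 CPM in the Sertoli-like cells and near 0 in germ cells.

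The question of the treatment comparison was how transcript levels differed while JQ1 was present. In spermatid-like cells, Smarca5 was 126, 147 and 160 CPM in T. It was 55.8, 49.3 and 71.7 CPM in UC and 48.8 and 37.9 CPM in VC-T 2 and VC-T 3. Every T library was above every UC, VC-T and VC-R library, the highest of which had 75.2 CPM, and also above VC-T 1, with 93.9 CPM. The fitted log2 difference T minus UC was 1.02 ± 0.12 (SE), 2.03-fold (adjusted p = 7.32e-06, edgeR quasi-likelihood with Benjamini-Hochberg adjustment over 12758 genes), and T minus VC-T was 1.45 ± 0.14 (edgeR adjusted p = 3.17e-05). With VC-T 1 kept among the controls the latter was 1.10 ± 0.25 and no longer passed (edgeR adjusted p = 0.125). In that fit 0.0% of 13443 genes passed by edgeR, with 3558 at an unadjusted p under 0.05.

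Baz1a moved the other way. It was 35.4, 30.2 and 23.1 CPM in T, 78.1, 96.1 and 70.9 CPM in UC, and 116 and 75.3 CPM in VC-T 2 and VC-T 3. The T libraries were below all 8 controls and close to VC-T 1, at 33.0 CPM. The log2 difference was -1.65 ± 0.16 against UC (edgeR adjusted p = 1.05e-06) and -1.93 ± 0.19 against VC-T (edgeR adjusted p = 3.33e-05), and with VC-T 1 kept it was -1.57 ± 0.47 (edgeR adjusted p = 0.126). Over 17 alternative fits of the class, which include 1 with 10% ambient RNA subtracted, the difference against UC ranged from -4.31 to -0.19. Against VC-T it ranged from -4.68 to -0.41, so its size depends on the fit. BAZ1A is the partner with which SMARCA5 forms ACF.

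The other members moved less. Smarce1 was 50.6, 52.0 and 48.0 CPM in T against 32.8, 29.8 and 31.3 in UC, without overlap, a log2 difference of 0.45 ± 0.11 (edgeR adjusted p = 0.00361). Baz2a was 72.7, 76.6 and 73.7 CPM in T against 50.3, 41.9 and 53.3 in UC, also without overlap, a log2 difference of 0.38 ± 0.10 (edgeR adjusted p = 0.00753). Smarca2 was 88.0, 88.8 and 90.1 CPM in T against 64.2, 53.4 and 69.9 in UC, a log2 difference of 0.27 ± 0.10 (edgeR adjusted p = 0.0369), which did not pass with any 1 of the T libraries left out. Smarca4, at 15.4, 16.0 and 19.4 CPM in T and 9.49, 9.37 and 12.0 in UC, missed the threshold (log2 difference 0.43 ± 0.18, edgeR adjusted p = 0.0589). Arid1a and Baz1b did not pass, with log2 differences of 0.17 ± 0.14 and 0.33 ± 0.28, and Smarca1, with 0 to 4 UMIs per library, did not pass the filter on low counts.

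In all, 4 members were higher and 1 lower of 8 tested in T against UC, where 48.9% of all genes tested passed. Against VC-T 5 were higher and 1 lower of 8, with Smarca4 the addition (log2 difference 0.92 ± 0.22, edgeR adjusted p = 0.0066), where 42.2% of genes passed. With many genes past the threshold in this class, the counts are a description and are not set apart from those of other genes. The fit scales each library by TMM factors. On library totals alone the median of all genes was 0.24 higher on the log2 scale, 67.4% rather than 45.6% of passing genes were higher in T, and Smarca4 and Arid1a also passed as higher, while Baz1a remained lower at -1.41 ± 0.15.

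VC-T 2 resembled R in that 61.9% of its spermatid-like cells lay in the low-UMI clusters, against 8.05% in VC-T 3. Without those clusters Smarca5 was 1.01 ± 0.12 higher than in UC and 1.35 ± 0.14 higher than in VC-T, and Baz1a was -1.66 ± 0.17 and -2.09 ± 0.20, each past the threshold (edgeR adjusted p = 5.07e-06, 7.84e-06, 1.02e-06 and 3.46e-06). Against UC Smarca4 then passed (0.51 ± 0.18, edgeR adjusted p = 0.027) and Smarca2 did not (0.24 ± 0.10, edgeR adjusted p = 0.063), where 51.7% of genes passed. Against VC-T Baz1b also passed (1.22 ± 0.36, edgeR adjusted p = 0.0137), where 52.4% of genes passed.

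**Figure D2:**
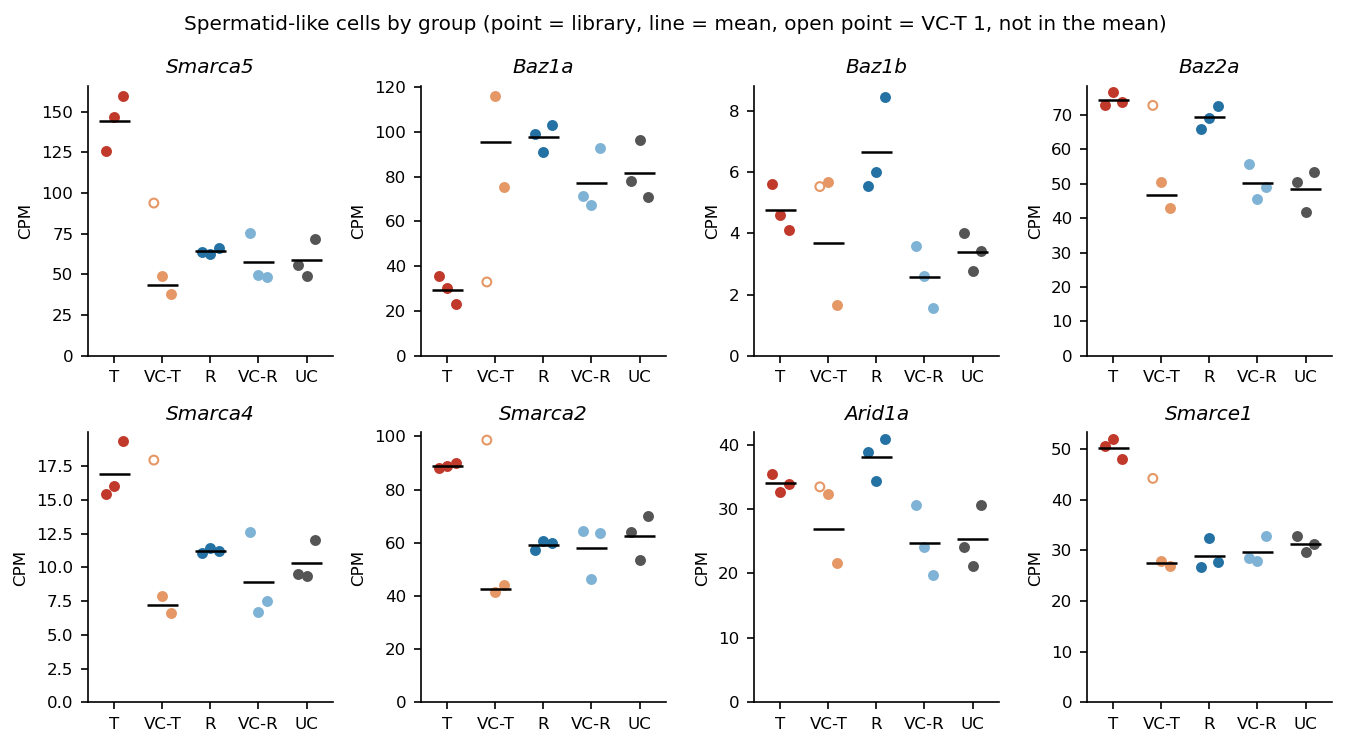
CPM of 8 genes (y axis, linear from 0) in spermatid-like cells of each group (x axis), with 1 point per library and a line at the group mean. The 3 T libraries sit above all filled control points for Smarca5 and Smarce1 and below them for Baz1a, and the open point of VC-T 1 lies with or towards the T libraries for these genes.

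The spermatid-like class was made up differently in T. Cluster 5 held 39.3% ± 4.96 of it in T and 15.0% ± 3.74 in UC, and cluster 20 held 0.693% ± 0.491 in T and 23.2% ± 4.95 in UC (SD, n = 3). Summed late spermatid markers (5 of 5 genes detected) were 3060 to 3470 CPM in T and 5272 to 6042 in UC, summed spermatocyte markers (7 listed, at least 6 detected) were 751 to 778 and 367 to 410, and summed Sertoli markers (8 listed, 5 to 8 detected) were 4.97 to 17.1 and 30.9 to 53.3. The comparison was therefore repeated within single clusters, a choice made after the data were seen.

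Smarca5 was higher in T within each of the 3 early spermatid-like clusters. In cluster 5 it was 153, 177 and 169 CPM in T and 99.6, 112 and 125 in UC, a log2 difference of 0.45 ± 0.14 (edgeR adjusted p = 0.0379; 6.89% of genes passed). In cluster 15 it was 173, 192 and 195 CPM against 106, 121 and 130, a log2 difference of 0.55 ± 0.12 (edgeR adjusted p = 0.000526; 10.2% of genes passed). In cluster 2 it was 89.2, 89.9 and 110 CPM against 47.5, 41.7 and 54.8, a log2 difference of 0.85 ± 0.14 (edgeR adjusted p = 2.13e-05; 23.7% of genes passed). In none of the 3 clusters did a T library overlap a UC, VC-T or VC-R library.

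Against VC-T the Smarca5 differences were 1.06 ± 0.20, 0.90 ± 0.14 and 0.91 ± 0.21 in clusters 5, 15 and 2 (edgeR adjusted p = 0.000305, 1.15e-06 and 0.0047), where 3.88%, 9.25% and 18.8% of genes passed. With VC-T 1 kept they were 0.71 ± 0.15, 0.79 ± 0.12 and 0.77 ± 0.21 (edgeR adjusted p = 0.0253, 0.000416 and 0.0954), where 0.815%, 2.56% and 0.887% of genes passed. VC-T 1 itself had 114, 119 and 65.1 CPM in these clusters, below every T library. The comparison was also made with equal numbers of cells from every library in each pseudotime bin. In T against UC, with 310 cells per library, Smarca5 was the member that passed, at 0.60 ± 0.13 (edgeR adjusted p = 0.00175), where 11.5% of genes passed. In T against VC-T, with 328 cells per library, it was again the member that passed, at 0.81 ± 0.17 (edgeR adjusted p = 0.0247), where 2.48% of genes passed.

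Baz1a showed no such difference within clusters 5, 15 and 2. In cluster 5 its log2 difference T minus UC was 0.83 ± 0.33 (edgeR adjusted p = 0.123), in cluster 15 0.14 ± 0.27 and in cluster 2 -0.26 ± 0.20, none past the threshold, and in matched cells it was -0.19 ± 0.21. Baz1a levels are low in these clusters and high in spermatocyte-like cells, and the part of free RNA from the latter was not tested within clusters. Cluster 20, where control libraries had 130 to 188 CPM of Baz1a, held 24, 4 and 4 cells of the T libraries, with 20, 0 and 2 Baz1a UMIs. The lower class level in T was seen beside the near absence of the cells of its second rise, and the part of this absence was not tested. A difference between T and control cells at that stage could not be measured. In the low-UMI spermatid-like clusters Baz1a was 60.4 to 96.2 CPM in T, from 19, 7 and 7 UMIs. It was 161 to 192 CPM there in UC and 123 to 147 in VC-T 2 and VC-T 3, while VC-R, at 75.2 to 133, overlapped T. Smarce1 passed within cluster 2 (log2 difference 0.60 ± 0.16 against UC, edgeR adjusted p = 0.00645; 0.70 ± 0.19 against VC-T, edgeR adjusted p = 0.0133) and not in clusters 5 and 15, where it was 0.11 ± 0.21 and 0.34 ± 0.19 against UC. Smarca2 and Baz2a passed in none of the 3 clusters, in either comparison.

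**Figure D3:**
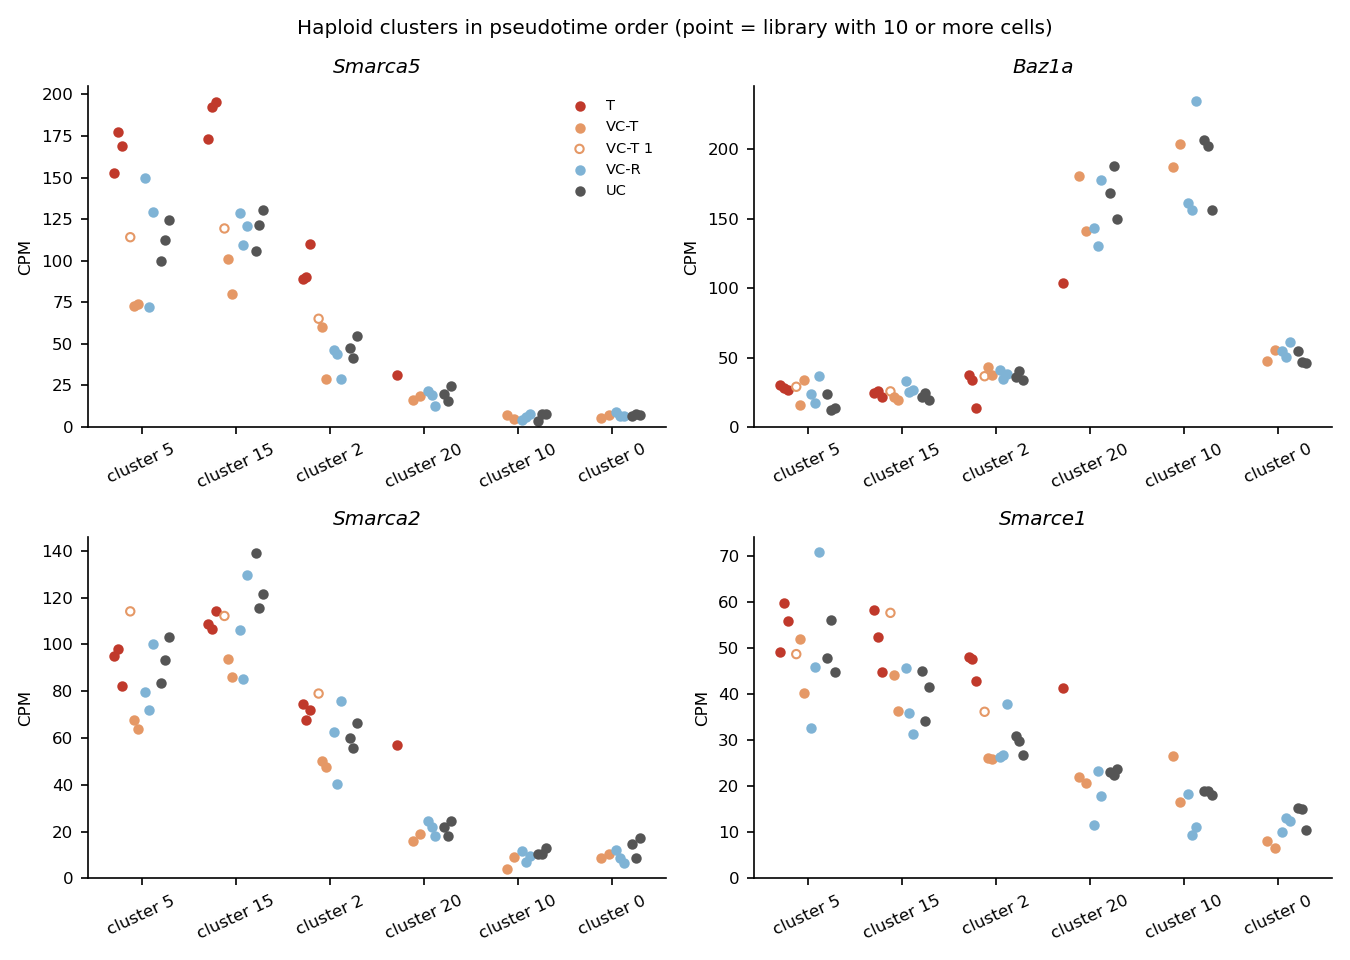
CPM of 4 genes (y axis, linear from 0) in 6 haploid clusters in pseudotime order (x axis), with 1 point per T or control library with at least 10 cells. Smarca5 of T lies above all controls in clusters 5, 15 and 2, and Baz1a rises from cluster 2 to clusters 20 and 10 in the controls, where T has 1 library with enough cells in cluster 20 and none in cluster 10.

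In spermatocyte-like cells as a class no member passed in T. Smarca5 was 245, 267 and 271 CPM in T and 206, 286 and 260 in UC, and Baz1a was 418, 469 and 495 CPM in T and 369, 475 and 355 in UC, so both pairs of groups overlapped. By edgeR 0 of 8 members passed in T against UC, with 0 at an unadjusted p under 0.05, where 2.04% of genes passed. In T against VC-T 0 passed, with 1 at an unadjusted p under 0.05, where 7.81% of genes passed. DESeq2 also passed 0 members in both comparisons. The log2 differences ranged from -0.36 (95% interval -0.79 to 0.06) to 0.16 (-0.13 to 0.45) in T against UC.

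The spermatocyte-like class was also made up differently in T. Cluster 22, the leptotene and zygotene-like cells in which Smarca5 is high, held 0.762% ± 0.269 of it in T, 11.9% ± 5.56 in UC (SD, n = 3 each) and 18.2% and 24.9% in the 2 VC-T libraries tested. Cluster 1, of pachytene-like cells, held 37.9% ± 5.22 in T and 23.8% ± 6.83 in UC. The class levels are therefore given beside those of single clusters.

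Apart from the low-UMI clusters, 6 spermatocyte-like clusters had enough cells in both T and UC, and Smarca5 passed in none of them. Its log2 differences T minus UC ranged from -0.07 in cluster 1 to 0.17 in cluster 16, with 0.07 ± 0.24 in cluster 22. Baz1a passed in cluster 22 alone, where it was higher in T by 1.33 ± 0.35 (edgeR adjusted p = 0.0069). It was 294, 497 and 371 CPM there in T, from 10, 9 and 12 UMIs in 24, 11 and 14 cells, and 78.6 to 202 CPM in the 8 controls, below each of these values, while VC-T 1 had 535 CPM from 15 UMIs. Smarca5 in the same cells was 649 to 1436 CPM in T and 766 to 1064 in the controls, so the groups overlapped. Against VC-T the Baz1a difference was 1.15 ± 0.47 and did not pass (edgeR adjusted p = 0.102). Baz2a passed in cluster 8, of diplotene and dividing-like cells, at 86.6, 101 and 86.2 CPM in T and 52.5, 16.0 and 45.4 in UC, a log2 difference of 1.14 ± 0.26 (edgeR adjusted p = 0.0489). The lowest UC value came from 5 UMIs, the VC-R libraries (67.9 to 93.0 CPM) overlapped T, and against VC-T the difference was 0.52 ± 0.18 (edgeR adjusted p = 0.379). Of all genes, 14.6%, 1.83%, 4.24%, 10.6%, 3.39% and 13.1% passed against UC in clusters 1, 8, 12, 13, 16 and 22. Against VC-T no member passed in these clusters by edgeR, with an unadjusted p under 0.05 for Baz1b in cluster 1, Baz2a in cluster 8, Smarca5 in cluster 16 and Baz1a in cluster 22, where 17.2%, 0.205%, 6.47%, 8.49%, 5.85% and 7.96% of genes passed.

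The T change in spermatid-like cells differed from that in spermatocyte-like cells of the same libraries for Baz1a, by -2.01 ± 0.20 (edgeR adjusted p = 0.0116), and for Smarca5, by 0.89 ± 0.17 (edgeR adjusted p = 0.0358), 2 of 8 members tested where 3.67% of genes passed. The make-up of both classes differed in T, and its part in this difference was not tested. Both kept their direction with each library left out, but Smarca5 passed only with UC 1 left out and Baz1a did not pass without T 2, T 3 or UC 3, at adjusted p-values up to 0.165 and 0.115 by edgeR.

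In spermatogonia-like cells 0 members passed in T against UC by edgeR or DESeq2, with 1 at an unadjusted p under 0.05 by edgeR, where 5.31% of genes passed. Against VC-T 2 of 8 passed by edgeR and 0 by DESeq2, where 11.6% of genes passed. Smarca2 was 74.3, 62.2 and 76.2 CPM in T (56, 28 and 26 UMIs), 34.5 and 25.6 in VC-T, and 48.8, 52.9 and 47.3 in UC, with a log2 difference of 1.17 against VC-T (edgeR adjusted p = 0.0118) and 0.53 against UC (edgeR adjusted p = 0.338). Baz1a was 165, 118 and 179 CPM in T and 88.1 and 88.7 in VC-T, a log2 difference of 0.75 (edgeR adjusted p = 0.0362). UC, at 156, 142 and 106 CPM, overlapped T. With VC-T 1 kept neither passed (edgeR adjusted p = 0.77 for Smarca2 and 0.794 for Baz1a), where 0.0% of 8475 genes passed by edgeR, with 519 at an unadjusted p under 0.05.

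The recovery comparison asked whether levels differed 6 weeks after the last dose. Smarca5 in spermatid-like cells of R was 63.9, 62.3 and 66.5 CPM, within the ranges of UC and VC-R, and its log2 difference was -0.10 ± 0.11 against UC and 0.00 ± 0.12 against VC-R. Baz1a was 99.1, 90.8 and 103 CPM in R, overlapping both control groups, with log2 differences of 0.05 ± 0.10 and 0.16 ± 0.11. Neither gene passed in these comparisons.

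Of 8 members 3 were higher and 2 lower in R against UC, where 44.4% of genes passed, and 3 were higher in R against VC-R, where 38.7% of genes passed. The 2 comparisons share the R libraries, and the 3 higher members in each were Baz1b, Arid1a and Baz2a. Baz1b was 5.54, 6.00 and 8.46 CPM in R, 4.01, 2.75 and 3.41 in UC and 3.60, 2.59 and 1.56 in VC-R, and its log2 differences were 0.84 ± 0.27 and 1.24 ± 0.30 (edgeR adjusted p = 0.00929 and 0.00236). Arid1a was 38.9, 34.3 and 40.8 CPM in R against 24.1, 21.2 and 30.7 in UC, a log2 difference of 0.36 ± 0.13 (edgeR adjusted p = 0.0203). Baz2a was 65.8, 69.1 and 72.6 CPM in R against 50.3, 41.9 and 53.3 in UC, a log2 difference of 0.31 ± 0.10 (edgeR adjusted p = 0.0162). Smarca2 and Smarce1 were lower against UC alone, at -0.29 ± 0.10 and -0.32 ± 0.13 (edgeR adjusted p = 0.0226 and 0.0396).

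None of these differences held without the low-UMI clusters. Then Baz1b was -0.11 ± 0.36 against UC and 0.08 ± 0.37 against VC-R, Arid1a 0.06 ± 0.13 and 0.08 ± 0.13, and Baz2a 0.12 ± 0.10 and 0.11 ± 0.10, and no member passed, where 1.25% of genes passed against UC and 0.0% against VC-R. Within R, Baz1b was 16.5 ± 0.966 CPM in the low-UMI clusters and 2.31 ± 0.898 in the other spermatid-like clusters, and in UC 21.5 ± 11.8 and 2.76 ± 0.915. Arid1a was 69.9 ± 6.61 and 23.8 ± 0.604 CPM in R and 107 ± 11.8 and 22.2 ± 3.50 in UC. The Baz1b level in the low-UMI clusters of UC rested on 1, 3 and 5 UMIs, and those of T 2 and VC-R 3 held 0. In R and UC both genes thus had the higher mean CPM in the low-UMI clusters, which is a share of RNA and not an amount per cell. R had the larger share of such cells. Smarca5 did not share this pattern, at 64.9 ± 4.62 and 63.7 ± 0.792 CPM in R. Summed Sertoli markers in the whole class were 80.6 to 105 CPM in R (8 of 8 genes detected), 30.9 to 53.3 in UC and 19.7 to 54.0 in VC-R, and their part in the differences was not tested.

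In late spermatid-like cells Baz1a was 58.1, 57.9 and 55.8 CPM in R and 71.3, 67.4 and 59.0 in UC, a log2 difference of -0.25 ± 0.08 (edgeR adjusted p = 0.0483) and the 1 member of 7 that passed, where 8.17% of genes did. It did not pass by DESeq2 or with any R library, UC 1 or UC 2 left out, and against VC-R the difference was -0.32 ± 0.11 (edgeR adjusted p = 0.215), with 2 of 7 members at an unadjusted p under 0.05. No member passed against VC-R in late spermatid-like, spermatocyte-like or spermatogonia-like cells, where 0.0% of genes passed in each by edgeR. None passed against UC in spermatocyte-like cells (0.00698% of genes) or spermatogonia-like cells (0.579% of genes), with 0 of 8 at an unadjusted p under 0.05 in the fits of spermatocyte-like and spermatogonia-like cells. DESeq2 passed 0 members in these classes.

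**Figure D4:**
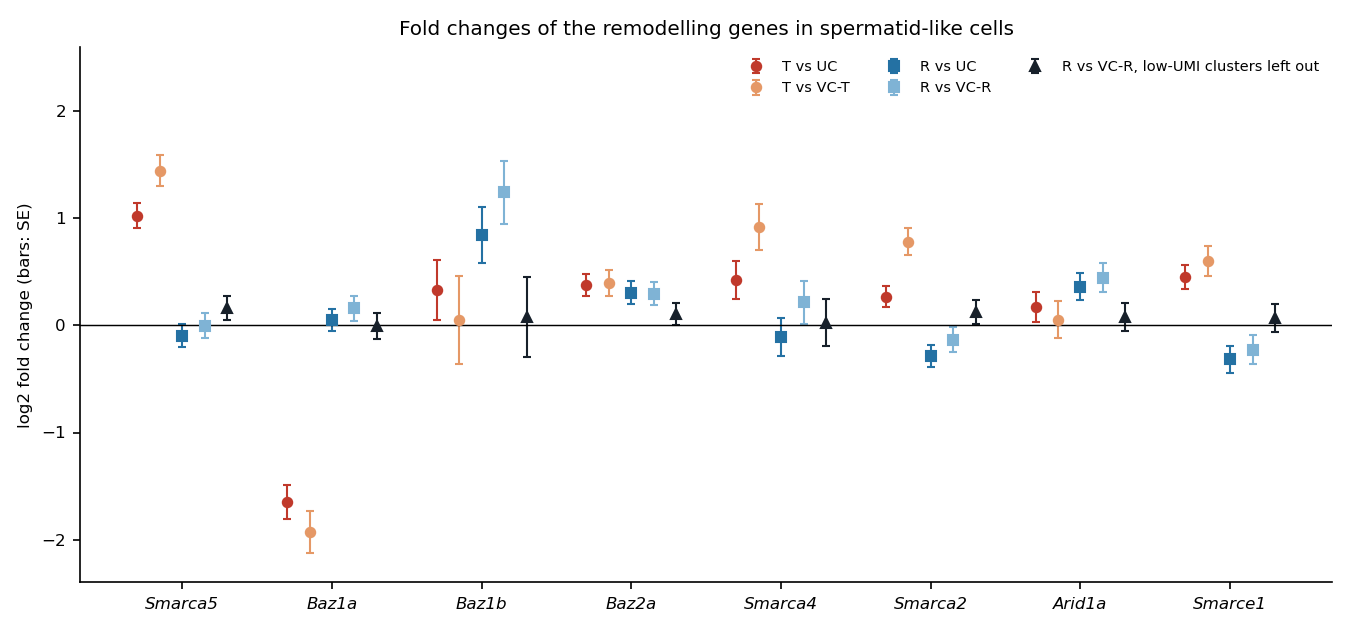
Log2 differences with SE (y axis) of 8 genes (x axis) in spermatid-like cells for T and R against their controls, and for R against VC-R without the low-UMI clusters. Smarca5 stands at 1.02 and 1.45 and Baz1a at -1.65 and -1.93 in T and both lie near 0 in R, and Baz1b of R moves from 1.24 to 0.08 when the low-UMI clusters are left out.

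The change in T relative to VC-T and the change in R relative to VC-R were compared in 1 fit. In spermatid-like cells they differed for Smarca5 by 1.51 ± 0.21, Baz1a by -2.01 ± 0.24, Smarca2 by 0.98 ± 0.18, Smarce1 by 0.89 ± 0.19 and Smarca4 by 0.76 ± 0.29 (edgeR adjusted p = 3.29e-06, 4.1e-07, 0.000116, 0.000454 and 0.0313), 5 of 8 members where 50.7% of genes passed. Smarca5 and Baz1a passed in all 17 alternative fits counted, 11 of which left out 1 library. The fit on library totals alone is not among the 17. None of these fits used pseudotime-matched cells, in which Baz1a passed neither in T against UC nor in T against VC-T. The part of class make-up in these differences was not tested. With VC-T 1 kept Smarca2 and Smarca4 did not pass, where 27.5% of genes passed. Smarce1 did not pass without the low-UMI clusters, at 0.44 ± 0.18 (edgeR adjusted p = 0.0513). Smarca4 passed in 9 of 17 alternatives and was lost also at 2000 UMIs per cell, with the replicate block, and without T 3, R 3, VC-R 1, VC-T 2 or VC-T 3. Baz2a, Arid1a and Baz1b did not pass, at 0.17 ± 0.15, -0.33 ± 0.22 and -1.13 ± 0.49. No member passed in spermatocyte-like cells (0.879% of genes, none at an unadjusted p under 0.05 by edgeR) or spermatogonia-like cells (1.27% of genes, 1 at an unadjusted p under 0.05).

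Further genes of remodelling complexes were read from 3 lists of 48 genes. In T against UC, 16 were higher and 4 lower of 40 tested in spermatid-like cells, with a median log2 difference of 0.21, against a median of 0.05 over all genes, of which 22.3% were higher and 26.6% lower. SWI/SNF subunits were 10 higher and 1 lower of 20, ISWI partners 3 higher and 0 lower of 7, and motors of other families 3 higher and 3 lower of 13. Rbbp4, a histone chaperone found in ISWI and other complexes, was higher by 1.09 ± 0.13, and Ss18 and Arid2, which mark different SWI/SNF forms, by 0.74 ± 0.15 and 0.67 ± 0.13 (edgeR adjusted p = 6.19e-06, 0.000928 and 0.000955). Chd5, a motor known in the histone exchange of spermatids, was lower by -0.73 ± 0.08, as were Chd7 by -1.42 ± 0.30 and the SWI/SNF subunit Bicra by -1.72 ± 0.47 (edgeR adjusted p = 3.47e-06, 0.00143 and 0.00811). In spermatocyte-like cells 1 of 42 was higher, Rbbp4, and 1 lower, Smarcb1, where 0.621% of all genes were higher and 1.42% lower. In spermatogonia-like cells 1 of 38 was higher, the CHRAC subunit gene Chrac1, by 0.91 ± 0.23 (edgeR adjusted p = 0.0268), and 0 lower. Of all genes there 3.93% were higher and 1.38% lower, so these counts are a description. In T against VC-T, where the ages were the same, 13 were higher and 4 lower of 43 tested in spermatid-like cells. Of all genes 17.1% were higher and 25.1% lower in that fit. The make-up of the spermatid-like class differed in T, and its part in the counts of that class was not tested.

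The genes whose levels over 11 stages and cell types were most like a member's were named by Pearson correlation of log2(CPM + 1) among 16262 genes, as a description. They were Sf3a1 (r = 0.993), Lmnb1 and Cdk12 for Smarca5, Nelfa (r = 0.988) for Smarca4, and Nr5a1 (r = 0.986), after Gm49708 (r = 0.987), for Smarca1. The stages share libraries and depth. Among the members the most alike pair was Smarca5 and Smarce1 (r = 0.974), and Smarca4 was also most like Smarca5 (r = 0.934), while Baz1a was most like Gm50165 at r = 0.875, lower than the closest gene of any other member.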

How the data were processed

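Testis cells were profiled by droplet single-cell RNA sequencing (10x, 3′ end), and the libraries were sequenced together according to the study. The authors deposited raw UMI counts per gene and barcode. The submitters' processing notes name Cell Ranger 3.0.0 and mm10, whereas the file headers name cellranger 7.0.0, and whether intronic reads were counted is not given in the sources used here, which can change the counts of long genes. Strand is kept by the kit.

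Barcodes were kept at a minimum of 500 genes and 1000 UMIs and a maximum of 30% mitochondrial UMIs. Doublets were scored with Scrublet through scanpy 1.11.5, and the top-scoring 5.4% in each library were dropped. Median UMIs per cell were 2455 to 4202.5 per library. Clusters were made with Leiden clustering (resolution 1.2, 30 components, 2000 variable genes) and named from marker lists. Of 31 clusters 3 stayed unnamed (5175 cells), and different clusters would give different class levels. UMIs were summed per library and class with at least 10 cells and tested by edgeR 4.0.16 quasi-likelihood on counts with filterByExpr and TMM, Benjamini-Hochberg adjusted over all genes tested, with passing at an adjusted p under 0.05. An SE is the log2 difference divided by the square root of F, and a 95% interval is 1.96 SE to each side. DESeq2 1.42.0, other scalings, filters and cell choices and left-out libraries were alternatives. The test was tested on simulated counts.

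All 9 members are named, and of the other remodelling genes up to 3 passing genes in each direction, those with the smallest adjusted p. The members and lists were chosen with earlier results of these data known. Clusters 9, 18, 19 and 23 were set aside as low-UMI, in the alternative, from values seen in the data: median UMIs under 0.6 of their libraries' and no marker of their class among the 10 leading genes. No spermatid-like cluster had such a marker there, so within that class the UMI limit alone set clusters 9, 18 and 19 apart. Pseudotime did not follow the spermatocyte stages (median 0.117 in cluster 8, diplotene and dividing-like, and 0.134 to 0.294 in 4 of the pachytene-like clusters), so matched spermatocyte-like cells are not matched for stage. Replicates were separate animals. Of 39 pairs of same-numbered libraries 12 had deviations correlated over 0.1, and in none of 11 comparisons and classes with 3 pairs did all, so the numbers were not taken to pair libraries. Gene positions are those of GENCODE for mm10. SEs and intervals include the spread between libraries, and UMI counts cover counting error only.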

Additional observations from a re-analysis of the deposited data

Results flagged for a closer look

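The T change in spermatid-like cells differed from that in spermatocyte-like cells by -2.01 for Baz1a and 0.89 for Smarca5 (log2, edgeR adjusted p = 0.0116 and 0.0358), in a test of the difference itself. With each library left out in turn, Smarca5 passed only without UC 1, and Baz1a did not pass without T 2, T 3 or UC 3. The make-up of both classes differed in T, and its part was not tested. The T change relative to VC-T differed from the R change relative to VC-R in spermatid-like cells by -2.01 for Baz1a, 1.51 for Smarca5, 0.98 for Smarca2, 0.89 for Smarce1 and 0.76 for Smarca4. Many genes passed that test, 50.7% of those tested.

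VC-T 1, the vehicle library left out of the comparisons unless named, exceeded all 8 other control libraries in 10 values with at least 30 UMIs. In spermatid-like cells these were Smarca2 at 98.6 CPM, Smarca5 at 93.9, Baz2a at 72.7, Smarce1 at 44.2, Arid1a at 33.4 and Smarca4 at 17.9. In spermatocyte-like cells they were Smarca4 at 166.8 CPM, Baz2a at 151.6 and Arid1a at 34.3, and in spermatogonia-like cells Baz1a at 190.1. It was below all 8 in Baz1a of spermatid-like cells, at 33.0 CPM from 215 UMIs, and in Smarce1 of spermatogonia-like cells, at 130 CPM from 37 UMIs. Groups of 3 libraries were too small for the test of single outlying libraries.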

How the results depend on the processing

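The count of members passing, over all classes tested, was 5 in T against UC, 8 in T against VC-T, 6 in R against UC, 3 in R against VC-R and 5 in the T change minus the R change. It became 1, 1, 0 and 1 in the first 4 with pseudotime-matched cells, and 2, 3, 0 and 1 with an absolute log2 difference over 1 also required. The share of all genes that passed in spermatid-like cells moved as well, from 48.9%, 42.2%, 44.4% and 38.7% to 11.5%, 2.48%, 25.9% and 31.2% in matched cells and to 16.5%, 20.6%, 8.53% and 8.56% with the log2 limit. DESeq2 gave 5 in T against VC-T and 1 in each R comparison (17.5%, 18.5% and 16.4% of genes in spermatid-like cells), at least 2000 UMIs per cell gave 1 and 0 in the R comparisons (15.8% and 7.73% of genes), and leaving out the low-UMI clusters gave 1 and 0 (1.25% and 0.0%). Fitting all libraries together gave 3 in R against UC (34.3% of genes). With VC-T 1 kept, T against VC-T gave 0 (edgeR, with unadjusted p under 0.05 for Smarca5, Baz1a and Smarce1 in spermatid-like cells), where 0.0% of genes passed in spermatid-like and spermatogonia-like cells, and the T change minus the R change gave 3 (27.5% of genes). Leaving out each library in turn gave 3 to 5, 6 to 7, 0 to 5, 1 to 4 and 4 to 6, with 0 in R against UC without R 3 and 3 in T against UC without UC 2. The share of all genes that passed is not given for fits with a library left out, so their counts are a description. For the T change in spermatid-like minus spermatocyte-like cells, 2 members passed, and 0 to 2 with each library left out, 0 of them without T 2, T 3 or UC 3. For other remodelling genes, 20 passed in T against UC in spermatid-like cells, 11 by DESeq2, 3 in matched cells and 13 to 21 with each library left out, 13 without UC 1 or UC 2.

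With replicate number entered as a block, although it does not pair these libraries, 6, 6, 6 and 2 members passed in the 4 comparisons and 4 in the T change minus the R change. The share of all genes that passed with the block is not given, so these counts too are a description. The stage with the highest level was the same for 8 of 9 members at 2000 UMIs per cell and for 9 in UC alone. Of 549 alternative values of the 29 passing differences, 374 kept direction and passed, 161 kept direction without passing, and 14 changed sign, none of these past the threshold. In R against UC these were Baz1b at -0.11 and Smarce1 at 0.0073 without the low-UMI clusters, Smarce1 at 0.19 and 0.073, Baz2a at -0.014 and Arid1a at -0.089 in single clusters, and in R against VC-R Baz2a at -0.14 in cluster 5. In T against UC they were Baz1a at 0.14 and 0.83 in clusters 15 and 5, and Smarca2 at -0.090 in matched cells and -0.25 and -0.11 in clusters 15 and 5. In T against VC-T they were Baz1a at 0.15 in cluster 15 and at -0.11 in matched spermatogonia-like cells. The causes were not tested. RLE factors moved the median of all genes by under 0.05 in each comparison of groups and by 0.12 in the difference between classes.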
